A study of Saccharomyces cerevisiae with 4 samples.

Results

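Closely spaced neighboring origins are origins of replication that sit so near one another that their replication tracts may merge. They were taken from the study's list of 392 origins with BrdU incorporation in either strain, as every origin whose midpoint lies within 5 kb of another listed midpoint on the same chromosome. This gave 69 origins in 32 runs of neighbors, 27 runs of 2 and 5 runs of 3, with 37 neighboring pairs. The other 323 listed origins are called single origins here. Within the runs the midpoints of neighbors lay 223 to 4940.5 bp apart, with a median of 3094 bp. The widest pair inside the limit was ARS805.7 and an unnamed origin on chromosome VIII, and the nearest pair outside it lay 5303.5 bp apart on chromosome XV.

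The data are BrdU-IP-Seq profiles of *rif1Δ* and *WT* budding yeast, 2 libraries from each strain. Both strains are *MATa* W303 derivatives that carry *bar1Δ*, the *can1-100* allele, the marker alleles *ade2-1*, *his3-11,15*, *trp1-1* and *ura3-1*, and a BrdU-Inc cassette at *LEU2*, which enables yeast to take up and use BrdU, and *RIF1* was replaced by a KanMX marker in the *rif1Δ* strain. Cells of both strains were held in G1 with 7.5 nM α-factor for 4 h at 23 °C and released with 200 µg/mL Pronase into medium holding 400 µg/mL BrdU and 0.2 M HU, where they stayed 45 min. The deposited profile holds 1 averaged value per strain for each 50 bp bin, so none of the differences between strains given here has a replicate check or a test, and the number of reads behind a bin is unknown.

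In budding yeast, an origin is a short DNA element (an autonomously replicating sequence, ARS) that is bound by the origin recognition complex and loaded with the MCM helicase in G1. Not every loaded origin fires in a given S phase. An origin that has not fired is replicated passively when the fork of a neighbor passes through it, and BrdU marks both kinds of synthesis alike. HU depletes deoxyribonucleotides, so that forks from early origins stall after a short distance and late origins are held back by the checkpoint. Rif1 binds protein phosphatase 1, which opposes the kinase that activates MCM, and its loss is known to advance late origins.

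By the R64 gene table, 42 of the 69 intervals overlapped genes at their listed positions, and the other 27 were intergenic. The count includes members on chromosomes X and XI, where listed positions are offset from the peaks, as given below. The same share over all listed origins was not computed. An ARS name is carried by 47 members and 22 are unnamed in the list. The named members had intervals with a median of 320 bp and the unnamed members of 1578.5 bp, and 6 unnamed intervals span 7001 bp, so their midpoints say little about where an origin lies. In the list, each of the 32 runs holds members of a single class of Rif1 regulation: 13 runs with 29 members are Rif1-repressed, 9 with 19 members are Rif1-activated and 10 with 21 members are Rif1-unregulated. Among the 339 adjacent pairs of listed origins more than 5 kb apart, 165 (48.7%) share a class, and among the 46 of them that lie 5 to 10 kb apart 32 (69.6%) do. The study called these classes from peaks in these same libraries, so the direction of change in a class is part of how its members were chosen. It matched called peaks to known origins and compared the peaks between strains. Neighbors under the same called peak could thus receive the same class from it. The shares above therefore cannot show whether close neighbors are regulated alike, and this was not tested.

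Each run was examined in a window reaching 2.5 kb beyond its first and last midpoint, and each bin was assigned to the nearest midpoint, which gives every neighbor a territory. For each origin the BrdU signal was averaged within 500 bp of its midpoint. It counted as above background where it exceeded the 99th percentile of 5684 windows of 1 kb that keep a distance of 10 kb or more to all listed origins, which was 13.7 in *rif1Δ* and 13.6 in *WT* cells. Over all nuclear bins the mean signal was 12.1 in *rif1Δ* and 12.6 in *WT* cells.

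By this measure 56 of the 69 members (81.2%) were above background in *rif1Δ* cells, against 90.8% of all listed origins, and 41 (59.4%) in *WT* cells, against 64% of all listed origins. All 32 runs had at least 1 neighbor above background in *rif1Δ* cells and 21 had one in *WT* cells. The 11 runs without one in *WT* cells are all Rif1-repressed. Every neighbor of the run was above background in 19 runs in *rif1Δ* and in 18 runs in *WT* cells.

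The neighbor that carried the peak was in most cases the same in both strains. In the 21 runs above background in both strains, the highest bin lay nearest to the same neighbor in 20. In those 20 runs the highest bins of the strains lay a median of 25 bp and at most 200 bp apart. The exception was ARS422.5 and ARS423 on chromosome IV. In 5 further runs the nearest neighbor differed between the strains, but there the *WT* signal did not exceed background, so the position of its highest bin carries little information.

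The highest bin lay close to a listed midpoint. In *rif1Δ* cells its median distance from the nearest midpoint was 134 bp over 32 runs, and in *WT* cells 135.5 bp over the 21 runs above background. At single origins above background this distance was 124 bp in *rif1Δ* and 139.5 bp in *WT* cells. The farthest was at ARS1109 on chromosome XI, 528.5 bp in *rif1Δ* and 578.5 bp in *WT* cells. Offsets of peak from midpoint were taken at single origins with a strong mean signal over both strains and an interval of at most 1000 bp. Their median was 325.75 bp rightward at the 8 such origins of chromosome XI and 297 bp at the 7 of chromosome X. On the other chromosomes the medians were -96.25 to 71 bp. Listed positions and peaks are thus offset on chromosomes X and XI, and no gene is given for members there.

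Where a run held both named and unnamed members, the named ones carried the peak more often. In *rif1Δ* cells the highest bin lay nearest to a named origin in 17 of 19 such runs, and in *WT* cells in 12 of 13 such runs above background. In *rif1Δ* cells a maximum, the highest bin of the run included, lay in the territory of 34 of 47 named and 5 of 22 unnamed members. In the 21 *WT* runs above background this held for 22 of 31 named and 1 of 13 unnamed members. Such a maximum does not mean that the member was separated from its neighbor. Another 17 members in *rif1Δ* and 18 in *WT* cells had a signal above background without a maximum of their own.

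**Figure D1:**
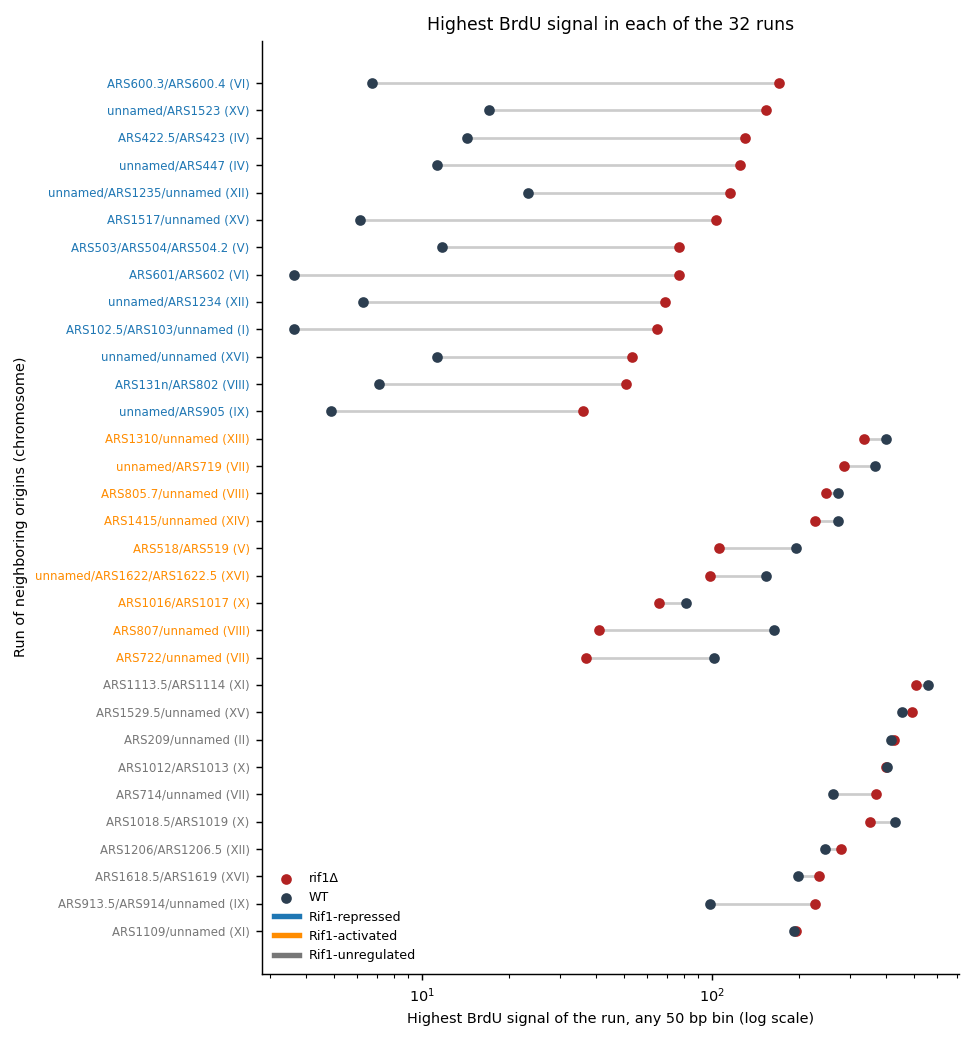
Highest BrdU signal in any 50 bp bin of each of the 32 runs, on a log axis, for *rif1Δ* and *WT* cells, with the names of the runs colored by class. The 13 Rif1-repressed runs have tops of 35.9 to 171 in *rif1Δ* and 3.62 to 23.2 in *WT* cells, and the other classes differ less between strains.

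A run counted as having separate maxima where, besides its highest bin, another local maximum stood out from its surroundings by at least 20% of the highest bin and by at least 5 signal units. Of the 32 runs, 7 had 2 maxima in *rif1Δ* and 2 had 2 maxima in *WT* cells, and none had more. Among runs above background these were 7 of 32 (21.9%) in *rif1Δ* and 2 of 21 (9.5%) in *WT* cells. These counts rest on the limit: with 40% in place of 20%, only ARS422.5 and ARS423 in *rif1Δ* cells and no run in *WT* cells had 2 maxima. Only the run of ARS805.7 had 2 maxima in both strains, 6 had them in *rif1Δ* cells alone and 1, that of ARS1016 and ARS1017, in *WT* cells alone. The 6 runs with 2 maxima in *rif1Δ* cells alone are all Rif1-repressed, and the highest signal of these runs in *WT* cells was 4.88 to 23.2. At *WT* signals this low, the limit of 5 units could by itself keep a second maximum from counting. By the same rule 0 of 300 single origins above background had 2 maxima in *rif1Δ* cells and 1 of 210 in *WT* cells, in windows that are shorter than those of the runs.

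ARS422.5 (chromosome IV, 748384 to 748630) overlaps *SWI5*, which encodes a transcription factor of late mitosis. ARS423 (753159 to 753391) overlaps *EKI1*, an ethanolamine kinase gene. The signal at ARS422.5 was 96.5 in *rif1Δ* and 14.1 in *WT* cells, and at ARS423 it was 125 in *rif1Δ* and 4.70 in *WT* cells. In *rif1Δ* cells both neighbors thus had a peak, with maxima of 102 and 130.1, and the higher one was at ARS423. The lowest bin between them had 0.239 times the signal of the lower peak. In *WT* cells the run had a single low maximum of 14.4, nearest to ARS422.5, just above the background threshold. The log2 ratio of *rif1Δ* over *WT* signal, with a pseudocount of 1, was 2.69 at ARS422.5 and 4.47 at ARS423.

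Near the left end of chromosome V, ARS503 (6464 to 7230, overlapping YEL073C), ARS504 (8786 to 10019) and ARS504.2 (11713 to 12194) form a run of 3, the last 2 lying between YEL073C and *RMD6*. In *rif1Δ* cells the outer members had a peak each, of 26.4 at ARS503 and 77.2 at ARS504.2, and the middle one had none. The signals in *rif1Δ* cells were 22.5, 8.03 and 72.6 at ARS503, ARS504 and ARS504.2. In *WT* cells they were 8.71, 2.89 and 2.98 in the same order, and the highest bin, at 11.8, lay nearest to ARS503. ARS504.2 had a log2 ratio of 4.21, against 1.27 at ARS503. In this window 15.8% of bins in *rif1Δ* cells and 0% in *WT* cells had a signal of 1 or less.

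ARS131n (chromosome VIII, 5158 to 6168) overlaps YHL048C-A, and ARS802 (7534 to 7782) overlaps *COS8*, a member of a subtelomeric gene family. They were the closest neighbors with separate peaks, 1995 bp apart. In *rif1Δ* cells their maxima were alike, 50.8 and 44.6, with a shallow valley of 0.647 times the lower one. The signal at ARS131n was 43.8 in *rif1Δ* and 6.21 in *WT* cells, and at ARS802 it was 43.5 in *rif1Δ* and 2.35 in *WT* cells. Here too the window held bins of 1 or less in 1 strain only, 20.7% in *rif1Δ* and 0% in *WT* cells. *COS8* has close relatives at other chromosome ends, and how reads with several matches were treated is not given in the sources used here.

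On chromosome IX, an unnamed origin (30065 to 31646, overlapping *SOA1*) and ARS905 (33335 to 33803, overlapping YIL165C) had 2 low peaks in *rif1Δ* cells, of 28.4 and 35.9. Signal at the unnamed member was 24.7 in *rif1Δ* and 4.47 in *WT* cells, and at ARS905 35.0 in *rif1Δ* and 3.80 in *WT* cells. The valley between them was shallow, 0.696 times the lower peak.

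Near the right end of chromosome XII, ARS1235 (1059486 to 1059919, overlapping YLR460C) stands between an unnamed interval of 7001 bp and an unnamed origin (1062398 to 1065752) over *PAU4*, a gene of the seripauperin family. In *rif1Δ* cells ARS1235 and the right member had a peak each, of 56.1 and 116. The signal at ARS1235 was 48.6 in *rif1Δ* and 2.55 in *WT* cells, and at the right member 73.5 in *rif1Δ* and 5.17 in *WT* cells. The left member, which overlaps *PDP3*, YLR456W, *NBP1* and *GAB1*, had a signal of 3.86 in *rif1Δ* and 3.79 in *WT* cells. The highest *WT* bin of the run, 23.2, lay 400.0 bp to the right of the highest *rif1Δ* bin and 800.0 bp from the midpoint of the right member, so that it falls outside the 500 bp used for the signal.

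Both members of the run on chromosome XVI are unnamed. The left one (189963 to 191457, overlapping *GUP2* and *POS5*) had a signal of 50.2 in *rif1Δ* and 6.34 in *WT* cells, and the right one (194903 to 196097, overlapping *UIP4* and *MRN1*) of 19.7 in *rif1Δ* and 10.3 in *WT* cells. The left member thus had the higher peak in *rif1Δ* cells, 53.1 against 22.4 at the right member. In *WT* cells the highest bin, 11.2, lay nearest to the right member, below the background threshold. The log2 ratio was 2.80 at the left and 0.87 at the right member.

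ARS805.7 (chromosome VIII, 111293 to 111766, overlapping *TCD1* and *NEM1*) and an unnamed origin (115683 to 117257, overlapping *TIM10*) kept the same 2 peaks in both strains. The unnamed member was the stronger one, with a signal of 244 in *rif1Δ* and 266 in *WT* cells, against 98.0 in *rif1Δ* and 107 in *WT* cells at ARS805.7. The log2 ratios of both neighbors were -0.12. The valley was deeper in *rif1Δ* cells, 0.242 times the lower peak, against 0.485 times in *WT* cells.

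The pair of ARS1016 and ARS1017 on chromosome X showed the opposite pattern to the Rif1-repressed runs. ARS1016 had a signal of 4.43 in *rif1Δ* and 35.4 in *WT* cells, and ARS1017 of 54.3 in *rif1Δ* and 74.8 in *WT* cells. In *WT* cells both had a peak, of 45.1 and 81.5, whereas in *rif1Δ* cells the highest bin in the territory of ARS1016 was 6.75, below background. The log2 ratio was -2.75 at ARS1016 and -0.45 at ARS1017, and -2.65 and -0.40 with positions moved by the 297 bp of the single origins of this chromosome.

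**Figure D2:**
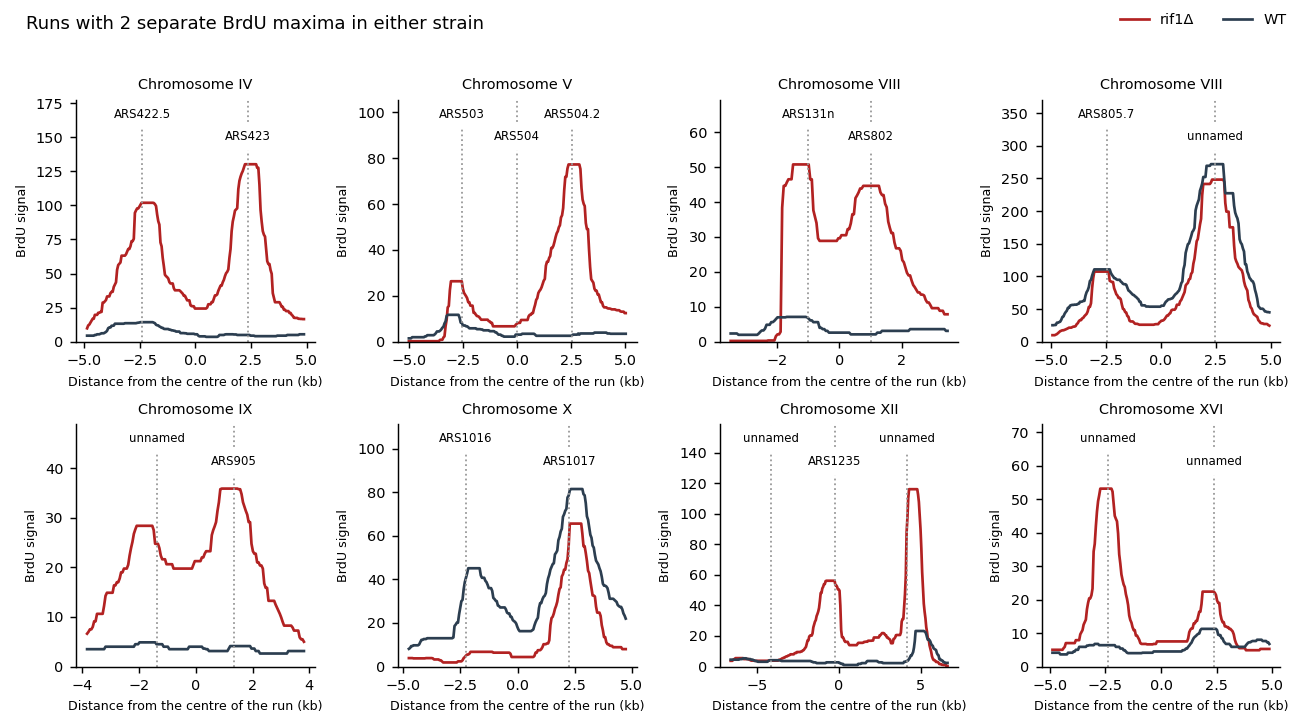
BrdU signal against the distance from the centre of the run in kb for the 8 runs with 2 maxima in either strain, *rif1Δ* and *WT* cells as lines and the midpoints of the neighbors as dotted lines. In 6 panels 2 peaks stand in *rif1Δ* cells over a low *WT* profile, and on chromosome X the left peak of the *WT* profile is missing in *rif1Δ* cells.

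In 4 pairs the neighbors lay less than 1 kb apart, which is within the window over which the study smoothed the profile, and none of them had separate maxima. ARS601 and ARS602 (chromosome VI, 32472 to 32995 and 32666 to 33247) overlap between YFL051C and *ALR2*. Their signal was 74.0 and 73.3 in *rif1Δ* cells and 3.43 and 3.23 in *WT* cells, and the flat top of the *rif1Δ* peak spanned both midpoints. ARS600.3 and ARS600.4 (chromosome VI, 18682 to 19864 and 19669 to 20826) also overlap. The signal was 84.3 and 154 in *rif1Δ* cells and 3.33 and 5.78 in *WT* cells at ARS600.3 and ARS600.4. In *rif1Δ* cells the highest bin, 171, lay 277.5 bp to the right of ARS600.4, and ARS600.3 stood on its shoulder with no maximum of its own. ARS1012 and ARS1013 on chromosome X had almost the same profile in both strains. Their common peak was 401 in *rif1Δ* and 402 in *WT* cells, lying between the listed midpoints and nearer to ARS1012, though this chromosome has the offset given above.

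ARS914 (chromosome IX, 247579 to 247800, between YIL059C and *RGI2*) was flanked by ARS913.5 at 1876.5 bp and by an unnamed origin at 930.5 bp. It carried the only maximum of the run in both strains. Its signal was 213 in *rif1Δ* and 94.2 in *WT* cells, against 71.8 in *rif1Δ* and 33.6 in *WT* cells at ARS913.5. All 3 members had a higher signal in *rif1Δ* cells, with log2 ratios of 1.08 at ARS913.5, 1.17 at ARS914 and 0.84 at the unnamed origin. They are listed as Rif1-unregulated. ARS913.5 showed as a step in the flank of the peak in both strains.

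The runs of ARS103 and ARS1622, also with 3 members, had no second maximum in either strain. In *WT* cells the highest bin of the ARS103 run was 3.625, below background, so no *WT* peak stood there. On chromosome I, ARS103 (7998 to 8548, overlapping *SEO1*, a gene for a putative permease) had a signal of 61.3 in *rif1Δ* and 2.58 in *WT* cells. Its neighbors ARS102.5 and an unnamed origin had 21.1 and 15.5 in *rif1Δ* and 2.46 and 3.13 in *WT* cells and no maximum of their own in *rif1Δ* cells. On chromosome XVI, ARS1622 (563822 to 564061, overlapping *AIM45*) carried the peak in both strains, with a signal of 92.5 in *rif1Δ* and 145 in *WT* cells. ARS1622.5 lay on its right flank with 43.4 in *rif1Δ* and 84.1 in *WT* cells, and the unnamed interval of 7001 bp to the left had 13.8 in *rif1Δ* and 21.3 in *WT* cells.

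**Figure D3:**
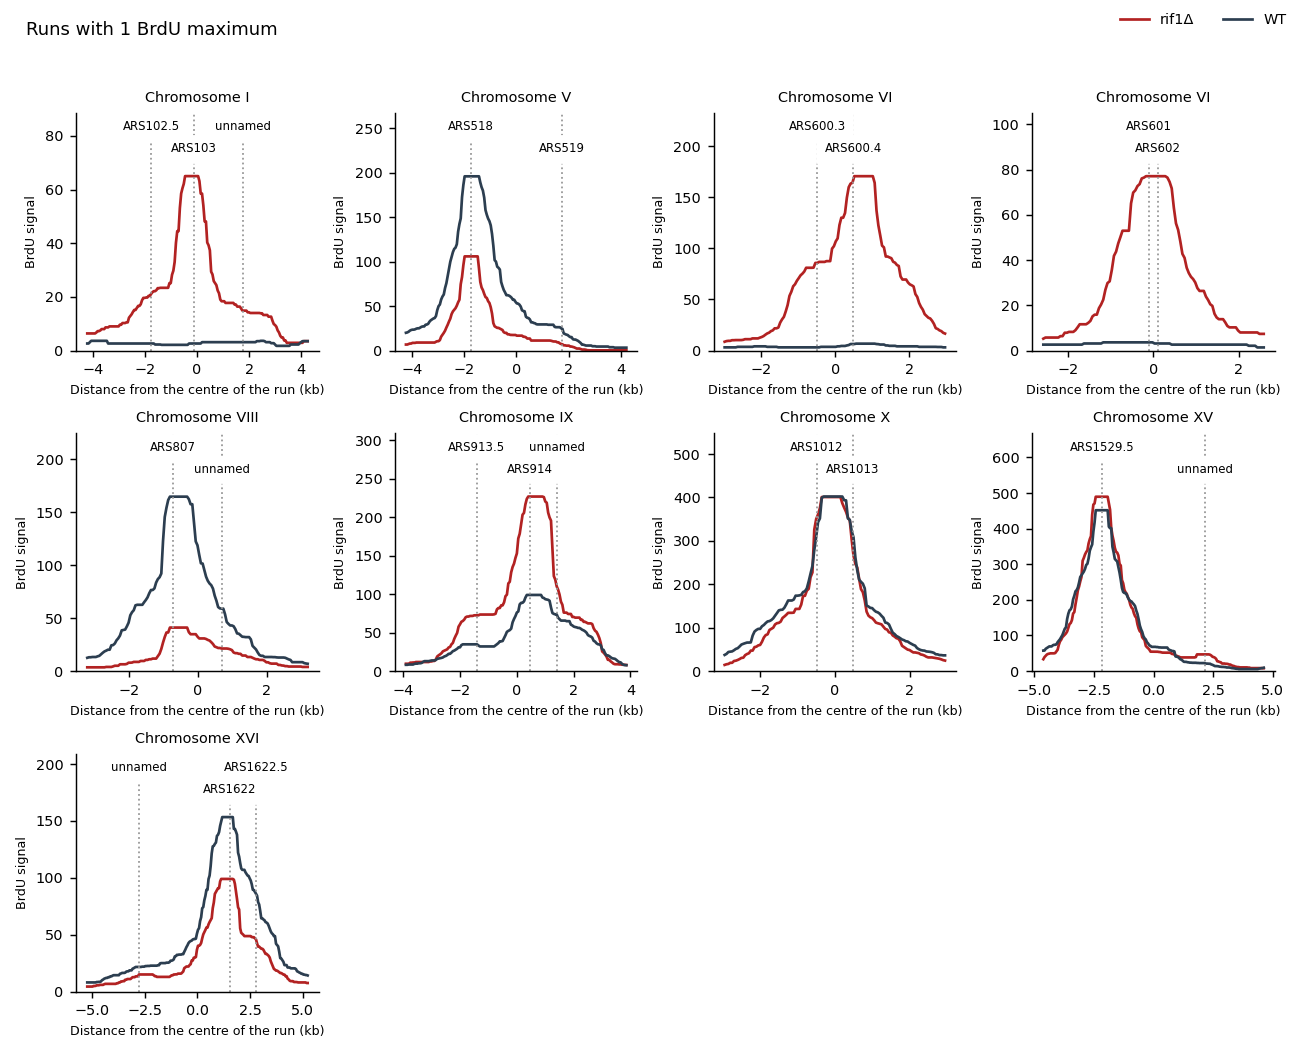
BrdU signal against the distance from the centre of the run in kb for 9 runs with 1 maximum, *rif1Δ* and *WT* cells as lines and the midpoints as dotted lines. One neighbor carries the peak and the others lie on its flank, as ARS519 does beside ARS518 with a signal of 7.47 in *rif1Δ* and 22.1 in *WT* cells.

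In the other 18 runs the highest bin lay nearest to the same neighbor in both strains, although 3 of them, those of ARS447, ARS1234 and ARS1517, were not above background in *WT* cells. Among the Rif1-unregulated runs, ARS209 (chromosome II, 254890 to 255136, beside the histone H4 gene *HHF1*) reached 426.5 in *rif1Δ* and 416 in *WT* cells. Its unnamed neighbor at 4002.5 bp had a signal of 2.19 in *rif1Δ* and 5.45 in *WT* cells, and 30.0% of bins in *rif1Δ* and 8.33% in *WT* cells of this window were at 1 or less. ARS714 on chromosome VII reached 369 in *rif1Δ* and 262 in *WT* cells, and ARS1206 on chromosome XII 280.4 in *rif1Δ* and 246 in *WT* cells. These peaks were higher in *rif1Δ* cells, as were those of ARS1619 (235 in *rif1Δ* and 198 in *WT* cells) and, by little, ARS1109 (195 in *rif1Δ* and 193 in *WT* cells). The peaks of ARS1019 (353 in *rif1Δ* and 429 in *WT* cells) and ARS1114 (507 in *rif1Δ* and 556 in *WT* cells) were lower in *rif1Δ* cells.

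ARS1529.5 on chromosome XV, between *RDR1* and *FRE3*, a gene for a ferric reductase, reached 489.7 in *rif1Δ* and 452 in *WT* cells. This run was singled out after its values were seen, because its unnamed neighbor (1056048 to 1059952, overlapping *FRE3* and *FIT2*) had a signal of 43.5 in *rif1Δ* and 20.6 in *WT* cells. In *rif1Δ* cells a small maximum of 46.8 stood out there by 8.50 units, which is too little for the 20% rule beside so high a peak. With a limit of 5 units alone, 8 runs in *rif1Δ* cells, this one included, and 2 in *WT* cells had separate maxima.

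The Rif1-activated runs with 1 maximum had lower peaks in *rif1Δ* cells. As a ratio the largest differences were at ARS807 on chromosome VIII, which reached 41.0 in *rif1Δ* and 164.5 in *WT* cells, and at ARS722 on chromosome VII, with 36.8 in *rif1Δ* and 102 in *WT* cells. The highest bins of the ARS722 run lay within the adjoining unnamed interval (574978 to 576840), though nearer to the midpoint of ARS722, whose territory held 41.1% of the signal in *rif1Δ* and 42.1% in *WT* cells, so neither neighbor led clearly there. ARS518 on chromosome V reached 106 in *rif1Δ* and 196 in *WT* cells, with its neighbor ARS519, over the *SCR1* gene for the RNA of the signal recognition particle, on its flank. In the windows of ARS722 and ARS518, 32.5% and 18.8% of bins in *rif1Δ* cells and 0% in *WT* cells were at 1 or less. ARS719, whose unnamed neighbor overlaps the plasma membrane ATPase gene *PMA1*, reached 287 in *rif1Δ* and 367 in *WT* cells, ARS1310 336 in *rif1Δ* and 399.8 in *WT* cells, and ARS1415 227 in *rif1Δ* and 272 in *WT* cells.

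The remaining Rif1-repressed runs each paired a short named origin with an unnamed interval of 7001 bp. ARS447 reached 125 in *rif1Δ* and 11.2 in *WT* cells, ARS1234 69.0 in *rif1Δ* and 6.25 in *WT* cells, ARS1517 103 in *rif1Δ* and 6.13 in *WT* cells, and ARS1523 154.5 in *rif1Δ* and 17.1 in *WT* cells. At the midpoints of the unnamed partners the signal was 2.58 to 5.83 in *rif1Δ* and 2.45 to 3.05 in *WT* cells. A single peak over the short origin thus made up these runs, and nothing above background stood at the midpoint of the long interval. In the window of ARS1517, 23.3% of bins in *rif1Δ* and 0% in *WT* cells were at 1 or less.

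Separation of neighbors was also measured on the valley between them, the lowest bin between the peaks of adjacent territories. Counting pairs with both peaks above background and a valley of at most 0.8 times the lower peak, 7 of 37 pairs were separated in *rif1Δ* and 2 in *WT* cells. Both peaks were above background in 33 of the pairs in *rif1Δ* and in 21 in *WT* cells, and only those could count. In *rif1Δ* cells they made up 1 of 12 pairs up to 2000 bp apart, 2 of 9 pairs from 2000 to 3500 bp and 4 of 16 pairs from 3500 to 5000 bp. The 2 separated pairs in *WT* cells lay 4546.5 and 4940.5 bp apart. Among the 46 adjacent pairs of listed origins 5 to 10 kb apart, 37 were separated in *rif1Δ* and 22 in *WT* cells by the same rule, with both peaks above background in 41 of them in *rif1Δ* and 28 in *WT* cells. Some of these wider pairs include a member of a run, such as ARS102.5 or ARS504.2, so the sets overlap. The window of such a pair can also take in the peak of another member of that run. The difference in spacing between these sets was not tested.

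**Figure D4:**
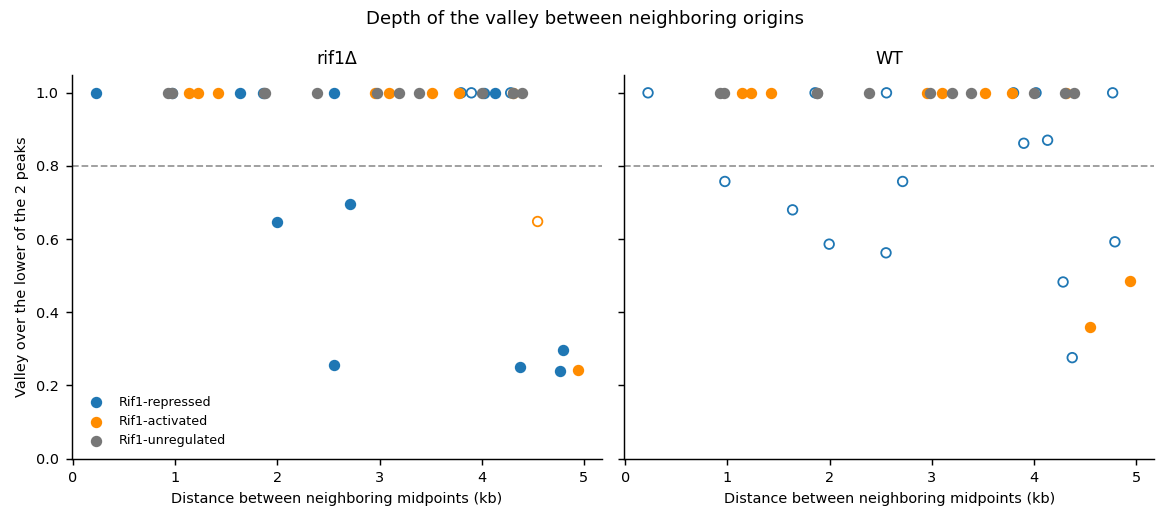
Valley between neighboring origins as a share of the lower of their 2 peaks, against the distance between midpoints in kb, for 37 pairs in *rif1Δ* (left) and *WT* cells (right). Filled points have both peaks above background and the dashed line marks 0.8; 7 filled points in *rif1Δ* and 2 in *WT* cells lie below it.

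Changes between strains were then compared within runs. The signal was higher in *rif1Δ* cells at 41 of 69 members (65.6% of all listed origins were higher) and lower at 28. The log2 ratio was above 1 at 26 members (37.7%), against 41.8% of all listed origins, and below -1 at 9 members (13.0%), against 8.93%. The share above 1 was thus lower and the share below -1 higher than in the whole list, by few members, and this was not tested. Over the whole window, 13 of 32 runs had a log2 ratio above 1 and 4 below -1, where 37.5% and 9.01% of the windows of all runs and single origins did. The median log2 ratio was 0.14 over the 69 members and 0.57 over all 392 origins. It was 2.91 for the 29 Rif1-repressed members and -0.98 for the 19 Rif1-activated members, where the single origins of these classes had medians of 2.36 and -0.68.

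Neighbors of the same class differed in the size of their change. The stronger neighbor of a run was taken as the one with the larger signal summed over both strains. The log2 ratio of a weaker neighbor lay below that of the stronger one in 29 of 37 cases: in 13 of 16 in Rif1-repressed, 7 of 10 in Rif1-activated and 9 of 11 in Rif1-unregulated runs. This choice of the stronger neighbor is not independent of the ratio: in Rif1-repressed runs, where *WT* signals are low, it amounts to a choice by the *rif1Δ* signal. With the stronger neighbor chosen by *WT* signal alone, 23 of 37 lay below, 7 of 16 in Rif1-repressed runs, 7 of 10 in Rif1-activated and 9 of 11 in Rif1-unregulated ones, so the count in Rif1-repressed runs is set by the choice. Among 32 pairs of the same class 5 to 10 kb apart, the ratio of the weaker member lay below that of the stronger in 18 (56.2%). This compares with 78.4% of the neighbors within 5 kb. Some of the wider pairs include a member of a run, and the difference was not tested. In Rif1-activated runs the median log2 ratio was -1.17 for weaker and -0.47 for stronger neighbors, and in Rif1-unregulated runs -0.46 for weaker and 0.09 for stronger ones. In Rif1-repressed runs it was 1.64 for weaker and 3.55 for stronger neighbors, with the stronger chosen by the summed signal. The weaker ones include the unnamed intervals of 7001 bp in this class, with log2 ratios of 0.02 to 0.91. At their midpoints the signal was below background in both strains. These medians were not computed without those intervals or with the choice by *WT* signal. Among the 9 members with a log2 ratio below -1, 7 were weaker neighbors, where 37 of all 69 members are weaker neighbors. The 7 include the unnamed neighbor of ARS209, whose signal of 2.19 in *rif1Δ* and 5.45 in *WT* cells was below background.

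**Figure D5:**
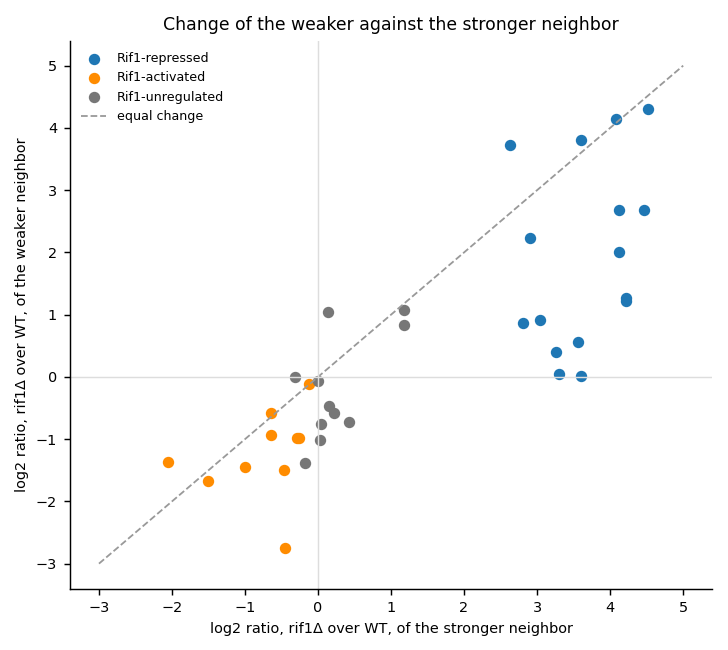
Log2 ratio of *rif1Δ* over *WT* signal at the weaker neighbor against that at the stronger neighbor of the same run, for 37 weaker neighbors colored by class, with the stronger neighbor chosen by the signal summed over both strains. Points below the dashed line of equal change, 29 of 37, have a lower ratio at the weaker neighbor, and the lowest point is ARS1016 at -2.75.

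The peaks were also narrower in *rif1Δ* cells. In the 20 runs above background in both strains with the same leading neighbor, the tract with at least 50% of the peak signal was narrower in *rif1Δ* cells in 19, with a median width of 1600 bp in *rif1Δ* and 1975 bp in *WT* cells. Single origins above background in both strains showed the same, in 180 of 198 (90.9%), with medians of 1600 bp in *rif1Δ* and 2150 bp in *WT* cells. The part of this width in the log2 ratios of weaker neighbors was not tested.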

How the data were processed

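The deposited values are smoothed coverage signal, 1 averaged column per strain. Per the study's methods, the authors separated the barcoded reads, trimmed the first bases, aligned pairs with Bowtie2 to release R64 and binned them at 50 bp (bedtools is named in the labels). A running median over 1 kb was applied, the 2 replicates of a strain were matched by quantile normalization and combined into their mean, and the result was smoothed a further time. Median smoothing gives peaks flat tops and can merge close peaks, and the scaling between strains is not stated. The averaged columns alone give no depth, replicate error or test between strains. The listed classes come from the authors' own comparison of peaks between the strains, which used the replicates and was not rerun.

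Positions and classes came from the study's list of origins and genes from the R64 gene table. Highest bins were placed at the centre of flat tops, and local maxima and their prominence were found with scipy. No sequence was searched for the ARS consensus, since no genome was used here. Members, rules and alternatives were chosen with earlier results of these data known. Runs described in full were those whose leading neighbor differed between strains, those with 2 maxima, those of 3 members and pairs less than 1 kb apart; others are given by their highest bin. The measures were tested on simulated peaks well above the *WT* signal of Rif1-repressed runs, with the same fold change at both neighbors. Low signals, unequal changes, median smoothing and the leading neighbor of pairs less than 1 kb apart were not covered. Software comprised pandas 2.3.3, scipy 1.17.1, numpy 2.4.6 and Python 3.11.15.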

Additional observations from a re-analysis of the deposited data

How the results depend on the processing

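Depth is unknown and the profiles hold no replicate error, so counts were taken to have moved where they changed by more than 1.5 times. Of 69 values under 21 alternatives, 60 stayed within this limit. Only the median log2 ratio could change sign, and it did not. The limit can hide a change within a class. With the stronger neighbor chosen by *WT* signal, the weaker neighbors below the stronger went from 29 to 23 of 37. In Rif1-repressed runs they went from 13 to 7 of 16. With runs of origins within 3 kb, 15 runs were left, of which 11 had the same leading neighbor in both strains, 9 of them above background in both strains, and 3 had 2 maxima in *rif1Δ* and 0 in *WT* cells; fewer runs enter. With windows reaching 1 kb beyond the run, 1 run had 2 maxima in *WT* cells. When a maximum had to stand out by 40%, 1 run had 2 maxima in *rif1Δ* and 0 in *WT* cells, so the count rests on this limit. Members with intervals of at most 1000 bp, 42 in all, held 17 above a log2 ratio of 1 and 5 below -1; fewer members enter. Without the runs in which over 10% of *rif1Δ* bins were at 1 or less, 5 runs in *rif1Δ* and 2 in *WT* cells had 2 maxima. This setting, the limit of 5 units alone and the settings for weaker neighbors were chosen after seeing the data. No paired analysis was possible because each strain is deposited as a single averaged profile, and replicates could not be left out in turn either.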

Other observations

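The flank of a peak that faces the other origin was set against the opposite flank, as the mean within 250 bp of the weaker neighbor's midpoint and of the point at the same distance on the other side of the peak. This was chosen after seeing the data, for runs of 2 with 1 maximum above background and at least 1000 bp from the peak to the weaker neighbor. The side of the neighbor was higher in 14 of 19 runs in *rif1Δ* and in 7 of 15 in *WT* cells, with a median log2 ratio of 0.43 in *rif1Δ* and -0.0079 in *WT* cells. The runs counted differ between the strains. Those of ARS447, ARS600.4, ARS1017, ARS1234 and ARS1517 entered in *rif1Δ* cells only, and that of ARS422.5 and ARS423 in *WT* cells only. The difference between strains was not tested. The unnamed neighbor of ARS1529.5 had 46.7 against 7.69 on the opposite side in *rif1Δ* cells, and 21.6 against 20.4 in *WT* cells. ARS1113.5 had 28.1 against 12.3 in *rif1Δ* cells and 74.4 against 34.4 in *WT* cells beside the peak of ARS1114. Beside ARS209 the side of the neighbor was lower in both strains, 0.475 against 12.6 in *rif1Δ* and 0.40 against 30.3 in *WT* cells. Beside ARS1517, whose window held many *rif1Δ* bins of 1 or less, the side of the neighbor had 4.775 against 0.25 in *rif1Δ* cells.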
